A study of Mus musculus with 18 samples.

Results

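De novo lipogenesis, the making of fatty acids from sugar, is represented here by 10 genes chosen by name: Acly, Acaca, Acacb, Fasn, Elovl6, Scd1, Me1, Thrsp, Srebf1 and Mlxipl. They are 10 of the 25266 genes listed for the livers of 18 mice, and all 10 are among the 11090 genes whose mean level was high enough to be tested. ATP citrate lyase (Acly) makes acetyl-CoA in the cytosol from citrate, the acetyl-CoA carboxylases (Acaca and Acacb) turn it into malonyl-CoA, and fatty acid synthase (Fasn) builds palmitate from it with NADPH that malic enzyme (Me1) helps to supply. Elovl6 elongates the product and Scd1 desaturates it. In liver the genes of these enzymes are induced after a carbohydrate meal by the transcription factors SREBP-1c, from Srebf1 and responsive to insulin, and ChREBP, from Mlxipl and responsive to sugars, while the kinase AMPK inhibits the carboxylases by phosphorylating them.

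The study asked what SAPS3, a regulatory subunit of protein phosphatase 6 encoded by Ppp6r3, does in the liver on a fatty diet. All 18 mice were males on the C57BL/6 background with Ppp6r3 alleles flanked by loxP sites. FF mice carried these alleles alone, and LKO mice carried them with Alb-Cre, a Cre recombinase driven by the albumin promoter of hepatocytes. From 8 weeks of age the mice ate, over 16 weeks, a control diet with 10 kcal% fat (CD) or a high fat diet with 32.5 kcal% fat (HFD). There were 4 FF CD, 4 LKO CD, 5 FF HFD and 5 LKO HFD mice with 1 liver library each. Mice with Cre and no floxed allele were not analysed here, so an effect of Cre itself cannot be told apart from that of the deletion.

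Levels are given in RPKM, read counts scaled to the length of a gene and the depth of its library. The libraries held an estimated 23.4 to 37.0 M reads, and the fewest reads behind a value of these 10 genes in any mouse were an estimated 1887, which by counting alone gives an error of 2.30%. Ppp6r3, the targeted gene, was at 7.55 to 11 RPKM in the 9 FF mice and at 3.88 to 4.87 RPKM in the 9 LKO mice, with no overlap. The 6 hepatocyte markers summed to 33898 to 51320 RPKM per mouse, and 2 of the 6, Apoa1 and Cps1, fell in FF HFD against FF CD. Of the 6 adipocyte markers, Adipoq, Plin1, Lep and Retn were at 0 in 14, 13, 17 and 13 of the 18 mice, and the list summed to 1.01 to 4.54 RPKM. The summed Kupffer cell markers ranged from 40.2 to 58.1 RPKM in FF CD and from 48.6 to 91.9 RPKM in FF HFD, and those of sinusoidal endothelium from 12.4 to 26.6 and from 32.9 to 52.7 RPKM. Of the latter, 3 of 5 rose in FF HFD, as did 2 of the 6 Kupffer cell markers and 1 of the 6 stellate cell markers (Col1a1), while 1 of the 2 adipocyte markers tested (Adrb3) fell. In LKO HFD against LKO CD 1 Kupffer cell marker (Clec4f) and 1 leukocyte marker (S100a8) rose. In LKO HFD against FF HFD Apoa1 rose and Col1a1 fell, and Col1a1 was also below 0 in the interaction of diet and genotype. Markers said to rise or fall passed the limits of fold and adjusted p given below. By these limits 6.6% of all tested genes changed in FF HFD against FF CD, 567 higher and 165 lower. The shares were 1.27% in LKO HFD against LKO CD, 2.07% in LKO HFD against FF HFD and 2.44% in the interaction. In LKO CD and LKO HFD the Kupffer sums were 33.5 to 54.6 and 46.8 to 91.4 RPKM, and the endothelial sums 9.90 to 28.8 and 25.0 to 35.8 RPKM. The stellate cell, cholangiocyte and leukocyte markers summed to 50.4 to 102, 15.3 to 65.9 and 2.14 to 7.03 RPKM over all mice. The part of other cell types in the results was not tested. In whole liver, fewer cells of a type and less RNA per cell cannot be told apart.

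Scd1 was the most abundant of the 10 genes at a mean of 2736 RPKM over the 18 mice, followed by Thrsp at 474 RPKM, Me1 at 148 RPKM and Acly at 112 RPKM. Fasn (90.7 RPKM), Mlxipl (60.0 RPKM), Elovl6 (45.6 RPKM) and Srebf1 (42.2 RPKM) came next, and Acacb (20.3 RPKM) and Acaca (15.3 RPKM) were lowest. The level of Scd1 lay above that of each other gene in every mouse. Neighbours further down this order were not separated, since the spread of a gene over mice was wide: the highest mouse exceeded the lowest 27.2-fold for Thrsp, 6.90-fold for Fasn and 6.05-fold for Elovl6. Mlxipl varied least, with a ratio of 2.02 between its highest and lowest mouse. Together the 10 genes took 0.810% to 1.47% of the summed RPKM in FF CD, 1.04% to 1.39% in LKO CD, 0.720% to 1.51% in FF HFD and 0.405% to 0.935% in LKO HFD, so that the LKO HFD range lay below that of LKO CD and overlapped those of the FF groups.

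By the GENCODE annotation of GRCm38, 4 of the 10 genes lie on chromosome 11: Fasn (chr11:120805846-120824547, minus strand), Acaca (chr11:84129672-84401651, plus), Acly (chr11:100476353-100528000, minus) and Srebf1 (chr11:60199089-60222581, minus). Acacb (chr5:114146535-114250761, plus) and Mlxipl (chr5:135089890-135138382, plus) share chromosome 5. Elovl6 is at chr3:129532355-129638495 (plus), Me1 at chr9:86581371-86695953 (minus), Thrsp at chr7:97412938-97417730 (minus) and Scd1 at chr19:44394455-44407879 (minus). Some overlap other genes, and whether the counting used the strand is not given in the sources used here: Elovl6 overlaps the antisense gene Gm35986 (2.38 to 11.5 RPKM), Acaca overlaps Gm11437 (0.937 to 3.70 RPKM) and Srebf1 overlaps Rai1 (0.539 to 1.51 RPKM). The tables give 1 value per symbol, so transcripts from different start sites of Srebf1 or Mlxipl were not separated.

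Promoters are shown for Fasn, a classical SREBP-1c target, for Elovl6, which fell on the high fat diet in both genotypes, and for both regulators. RefSeq windows (GRCm38.p6) from 250 bases before to 50 after the start were held for 9 of the 10 genes, 13 windows in all. Scd1 had none. The only windows of Acaca (chr11:84195188-84195487) and Acacb (chr5:114165268-114165567) are at starts within the gene, so their outermost GENCODE starts were not searched. The capitals mark matches, on either strand, to the sterol response element TCACNCCAC, the E-boxes CACGTG and CATGTG that SREBP-1 and other basic helix-loop-helix factors can bind, and the NF-Y box CCAAT. In Fasn (chr11:120824498-120824797, minus strand) all 3 matches are CCAAT, and 2 of them overlap. Elovl6 (chr3:129532136-129532435, plus) holds no match, and Srebf1 at its innermost RefSeq start (chr11:60210422-60210721, minus) a CCAAT and a CATGTG. Mlxipl (both plus) holds a TCACNCCAC match at the start within the gene (chr5:135106641-135106940) and a CACGTG and a CCAAT at the upstream start (chr5:135089640-135089939). The Srebf1 and Mlxipl windows were picked after the matches were seen.
Fasn: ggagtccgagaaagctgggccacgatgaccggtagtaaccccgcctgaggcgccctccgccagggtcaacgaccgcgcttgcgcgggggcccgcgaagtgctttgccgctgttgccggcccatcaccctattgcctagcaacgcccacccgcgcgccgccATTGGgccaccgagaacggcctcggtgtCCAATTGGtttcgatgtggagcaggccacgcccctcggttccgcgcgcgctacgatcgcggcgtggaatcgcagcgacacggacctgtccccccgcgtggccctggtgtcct
Elovl6: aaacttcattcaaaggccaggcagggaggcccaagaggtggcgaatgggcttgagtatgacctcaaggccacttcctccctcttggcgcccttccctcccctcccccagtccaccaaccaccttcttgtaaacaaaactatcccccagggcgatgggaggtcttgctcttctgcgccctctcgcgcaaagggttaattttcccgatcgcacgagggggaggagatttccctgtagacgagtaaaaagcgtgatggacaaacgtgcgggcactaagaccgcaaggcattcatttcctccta
Srebf1, innermost start: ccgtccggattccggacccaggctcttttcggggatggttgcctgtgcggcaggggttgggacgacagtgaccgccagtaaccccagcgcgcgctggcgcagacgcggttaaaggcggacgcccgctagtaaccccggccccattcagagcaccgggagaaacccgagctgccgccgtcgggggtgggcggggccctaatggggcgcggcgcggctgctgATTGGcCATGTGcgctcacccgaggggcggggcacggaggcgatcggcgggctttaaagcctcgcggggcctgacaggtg
Mlxipl, inner start: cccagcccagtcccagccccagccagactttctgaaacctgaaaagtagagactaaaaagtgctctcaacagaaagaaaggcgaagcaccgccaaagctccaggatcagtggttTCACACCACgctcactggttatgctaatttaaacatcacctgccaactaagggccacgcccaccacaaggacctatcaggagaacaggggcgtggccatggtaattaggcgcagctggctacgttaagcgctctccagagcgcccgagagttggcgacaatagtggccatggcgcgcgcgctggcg
Mlxipl, upstream start: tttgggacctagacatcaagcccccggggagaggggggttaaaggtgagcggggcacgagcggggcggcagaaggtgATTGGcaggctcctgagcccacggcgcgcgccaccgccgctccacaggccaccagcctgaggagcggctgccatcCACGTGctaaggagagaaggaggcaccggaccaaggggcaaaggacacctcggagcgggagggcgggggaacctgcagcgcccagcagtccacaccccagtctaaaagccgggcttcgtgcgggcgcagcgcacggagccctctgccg

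The match to TCACNCCAC in the inner Mlxipl window lies at -136 to -128 from the start, and the CACGTG of the upstream window at -98 to -93. Of all 32851 windows of this length, 1.24% hold TCACNCCAC, 7.15% CACGTG, 14.2% CATGTG and 37.4% CCAAT. Among the 9 genes, 1 had a match to TCACNCCAC, 1 had CACGTG, 3 (Acacb, Me1 and Srebf1) had CATGTG and 7 had CCAAT. Counted by window, as the shares above are, these were 1, 1, 3 and 8 of 13 windows. The matches are letters only, and no binding was measured. A sterol response element spelled in other letters would be missed, so a window without a match may still hold one.

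In the FF mice 5 of the 10 genes, Acly, Fasn, Elovl6, Srebf1 and Mlxipl, fell on the high fat diet and none rose. A gene counted as changed at a fold above 1.5 and an adjusted p under 0.05, from limma on log2(RPKM + 1) with Benjamini-Hochberg adjustment over the 11090 tested genes. Differences given with an SE are of log2(RPKM + 1) throughout. By the criterion of fold and p 6.6% of all tested genes changed and 1.49% fell. In the LKO mice 3 of the 10, Acly, Elovl6 and Thrsp, fell on the high fat diet, beside 1.27% of all genes changed and 0.307% lower. Between LKO CD and FF CD none of the 10 changed by limma, beside 0.225% of all genes. There 1 of the 10, Acaca, was lower at an unadjusted p under 0.05, and limma voom on estimated reads also called none. Between LKO HFD and FF HFD 1 of the 10, Me1, fell, beside 2.07% of all genes changed and 1.17% lower. The response to diet differed between the genotypes for 1 of the 10, Mlxipl, by the interaction of diet and genotype, beside 2.44% of all genes. Among all tested genes 567 rose and 165 fell in the FF diet comparison (410 and 236 with each mouse centred on its median), 107 and 34 in the LKO diet comparison (40 and 48 centred), 10 and 15 between genotypes on CD (16 and 15 rescaled to the same sum) and 100 and 130 on HFD (83 and 167 rescaled). The 4 comparisons share groups of mice, so their results are not independent of each other.

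Over the 10 genes the median log2 difference was -0.73 in FF HFD against FF CD, -1.0 in LKO HFD against LKO CD, -0.26 in LKO CD against FF CD and -0.52 in LKO HFD against FF HFD. The medians of all tested genes were 0.07, 0.07, 0.03 and 0.03. The groups did not overlap for 1 gene (Mlxipl) in the FF diet comparison, where 18.3% of all genes did not, and for 3 (Acly, Elovl6 and Me1) in the LKO diet comparison, where 9.04% did not. No gene of the 10 separated the genotypes on the control diet (5.07% of all genes), and Me1 did on the high fat diet (4.67%).

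**Figure D1:**
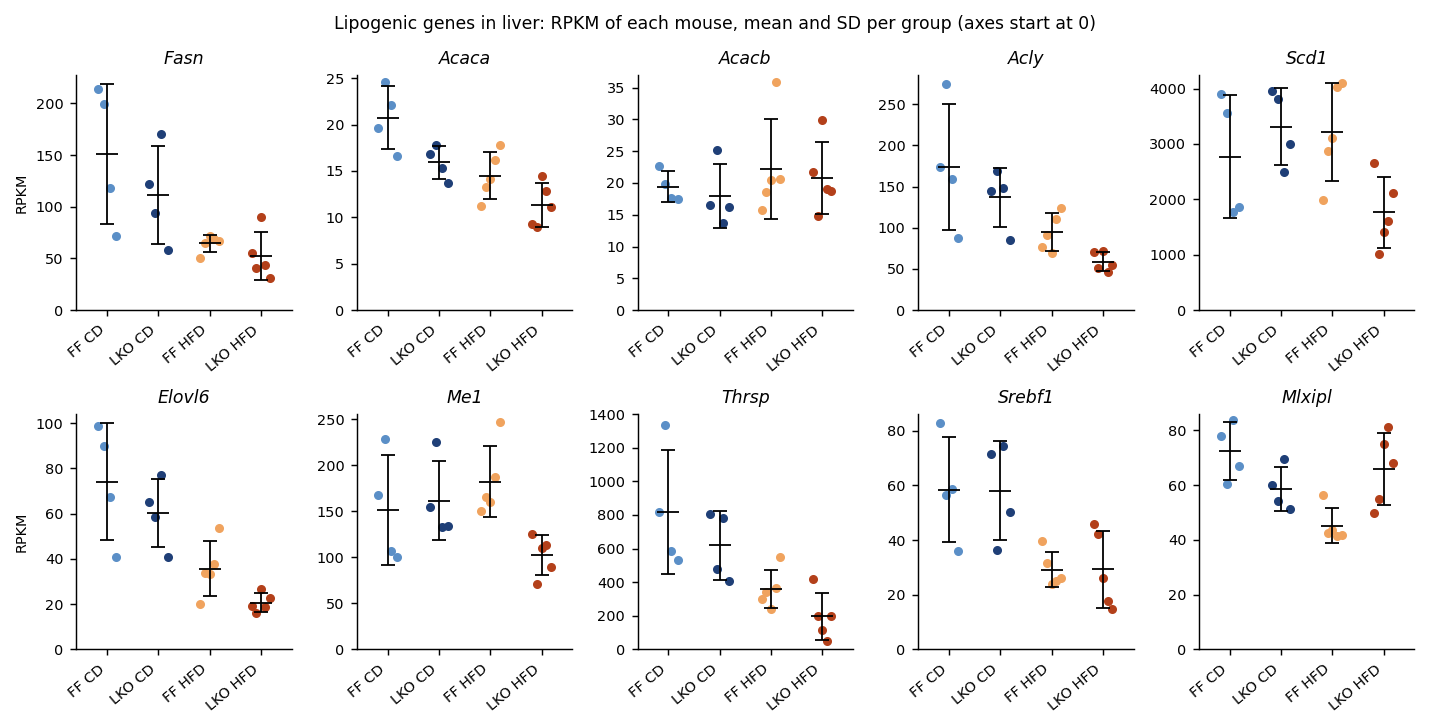
Level of each of the 10 genes in RPKM on a linear axis, by group, with 1 point per mouse. A line marks the group mean and an error bar the SD. Elovl6 in the 5 LKO HFD mice (16.3 to 26.9 RPKM) sits below all 4 LKO CD mice (41.0 to 76.9 RPKM), and Mlxipl is lower in FF HFD (41.6 to 56.5 RPKM) than in FF CD (60.3 to 83.8 RPKM).

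**Figure D2:**
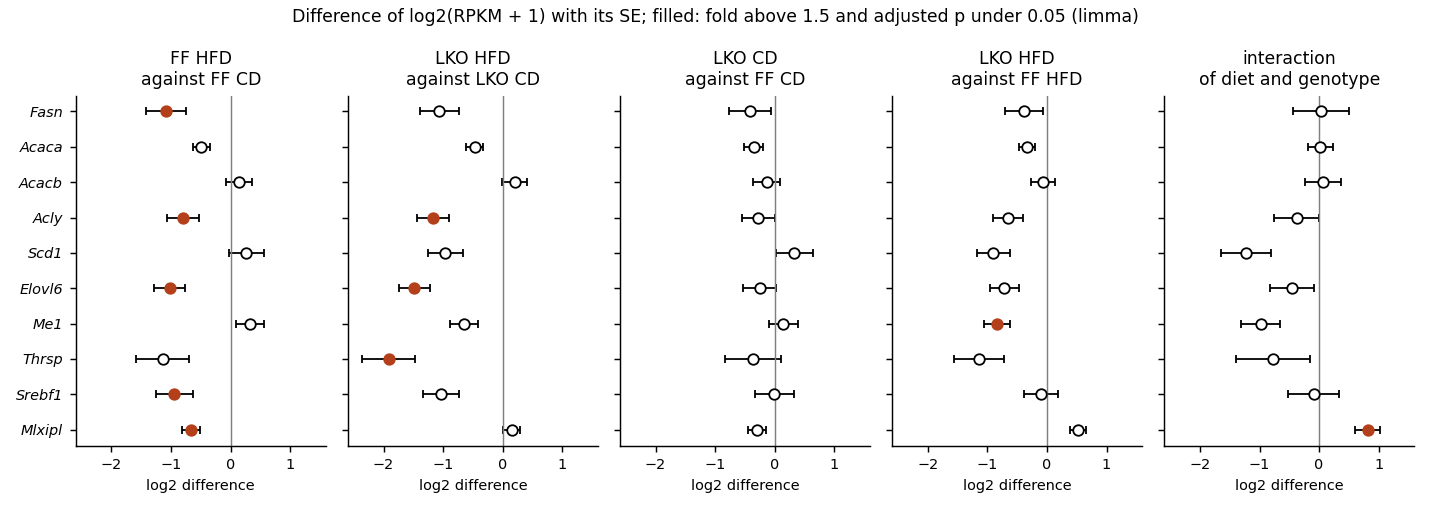
Difference of log2(RPKM + 1) for each gene in the 4 comparisons and in the interaction of diet and genotype, with the SE from limma. Filled points passed the limits of fold and adjusted p. The FF diet values of Thrsp (-1.14, not filled), Fasn (-1.09), Elovl6 (-1.02) and Srebf1 (-0.94) lie far below 0. Those of Scd1 (0.26) and Me1 (0.33) lie above it, and in the LKO diet comparison Scd1 (-0.96) and Me1 (-0.65) lie below 0. The interactions of Scd1 and Me1 did not pass (limma, adjusted p = 0.132 and 0.129).

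Of the genes from citrate to palmitate, Acly fell on the high fat diet in both genotypes and Fasn in FF mice, whereas Acaca and Acacb did not pass. Acly was at 173, 275, 159.7 and 87.6 RPKM in FF CD mice 1 to 4 and at 76.7, 91.2, 68.8, 111 and 124 RPKM in FF HFD mice 1 to 5. In LKO CD mice 1 to 4 its level was 145, 169, 148 and 85.0 RPKM, and in LKO HFD mice 1 to 5 it was 70.1, 51.6, 71.8, 46.5 and 55.2 RPKM. FF CD mouse 4 was the lowest of its group and lay within the FF HFD range, and the LKO diet groups did not overlap. It fell 1.74-fold in FF mice on the log2(RPKM + 1) scale (log2 difference -0.80 ± 0.27 SE, adjusted p = 0.0413) and 2.26-fold in LKO mice (-1.17 ± 0.27 SE, adjusted p = 0.0262, exact two-sided permutation p = 0.00794, the smallest that 5 against 4 mice allow). Here and below a permutation p is quoted only where groups did not overlap, which by itself makes it small, so it adds no separate support. The FF call was lost without any 1 of FF HFD mice 1, 2 and 3 and FF CD mice 1, 2 and 3 (adjusted p from 0.0727 to 0.158), and the LKO call without any 1 of LKO HFD mice 3 and 4 and LKO CD mice 1, 2 and 3 (adjusted p from 0.0501 to 0.0877).

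Fasn was at 214, 199, 118 and 71.3 RPKM in FF CD mice 1 to 4 and at 50.8, 65.4, 71.9, 68.8 and 66.7 RPKM in FF HFD mice 1 to 5. Its LKO levels were 122, 93.8, 171 and 58.1 RPKM in CD mice 1 to 4 and 55.3, 41.1, 90.6, 43.7 and 31.1 RPKM in HFD mice 1 to 5. The FF CD mice spanned a wide range, with mouse 4 again the lowest and within that of FF HFD, and in LKO mice the diet groups overlapped through LKO CD mouse 4 and LKO HFD mouse 3. Fasn fell 2.13-fold in FF mice (log2 difference -1.09 ± 0.33 SE, adjusted p = 0.0267), and its LKO difference of nearly the same size did not pass (-1.06 ± 0.33 SE, adjusted p = 0.0754). The interaction was 0.03 ± 0.47 SE, adjusted p = 0.985, so no difference between the 2 responses was detected. Without any 1 of FF HFD mouse 1 and FF CD mice 1 and 2 (adjusted p from 0.0542 to 0.0932) the FF call was lost.

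The carboxylase genes encode a cytosolic form (Acaca), which supplies malonyl-CoA for synthesis, and a form at the mitochondrial outer membrane (Acacb), whose malonyl-CoA restrains the entry of fatty acids for oxidation. Acaca was at 19.6, 24.6, 22.1 and 16.6 RPKM in FF CD mice 1 to 4 and at 11.2, 13.3, 14.2, 16.1 and 17.8 RPKM in FF HFD mice 1 to 5. The LKO CD mice 1 to 4 had 16.8, 17.8, 15.3 and 13.7 RPKM and the LKO HFD mice 1 to 5 had 9.29, 8.94, 14.5, 12.9 and 11.1 RPKM. FF CD mouse 4 and LKO CD mouse 4 again lay lowest in their groups and within the range of the HFD mice. The log2 differences of Acaca were similar in FF (-0.49 ± 0.15 SE, adjusted p = 0.0246) and LKO mice (-0.47 ± 0.15 SE, adjusted p = 0.0747), and both were under the 1.5-fold limit, at 1.40-fold and 1.39-fold lower.

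Acacb was at 22.6, 19.9, 17.7 and 17.5 RPKM in FF CD mice 1 to 4 and at 15.8, 18.6, 20.5, 35.9 and 20.6 RPKM in FF HFD mice 1 to 5. In LKO CD mice 1 to 4 its level was 16.6, 25.2, 13.7 and 16.3 RPKM, and in LKO HFD mice 1 to 5 it was 21.7, 14.7, 29.9, 19.0 and 18.7 RPKM. FF HFD mouse 4 stood above every other mouse of its group, and all groups overlapped. Acacb had log2 differences above 0 in both diet comparisons, of 0.14 ± 0.21 SE, adjusted p = 0.690 in FF and 0.20 ± 0.21 SE, adjusted p = 0.610 in LKO mice, which were within its error.

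Of the enzymes that finish the fatty acid, Elovl6 fell in both genotypes and Scd1 did not pass in either. Elovl6 was at 98.6, 89.8, 67.4 and 41.0 RPKM in FF CD mice 1 to 4 and at 20.1, 33.9, 33.3, 37.8 and 53.8 RPKM in FF HFD mice 1 to 5. Its LKO levels were 65.1, 58.6, 76.9 and 41.0 RPKM in CD mice 1 to 4 and 19.2, 16.3, 26.9, 18.7 and 22.6 RPKM in HFD mice 1 to 5. Only FF CD mouse 4 and FF HFD mouse 5 crossed between the FF diet groups, and none crossed in LKO mice. Elovl6 fell 2.03-fold in FF (-1.02 ± 0.26 SE, adjusted p = 0.010) and 2.79-fold in LKO mice (-1.48 ± 0.26 SE, adjusted p = 0.0113, exact two-sided permutation p = 0.00794). The FF call held without each of the 18 mice in turn, and the LKO call was lost only without LKO CD mouse 3 (adjusted p = 0.0538).

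Scd1 was at 3894, 3554, 1774 and 1861 RPKM in FF CD mice 1 to 4 and at 1981, 2876, 3109, 4036 and 4095 RPKM in FF HFD mice 1 to 5. The LKO CD mice 1 to 4 had 3958, 3806, 2494 and 2997 RPKM and the LKO HFD mice 1 to 5 had 2660.3, 1018, 1404, 1612 and 2122 RPKM. Within FF the 2 diets overlapped broadly, and the 2 highest mice were FF HFD mice 4 and 5. In LKO mice only LKO HFD mouse 1 lay within the CD range. The log2 difference of Scd1 was 0.26 ± 0.29 SE, adjusted p = 0.575 in FF and -0.96 ± 0.29 SE, adjusted p = 0.0688 in LKO mice, and their difference, the interaction, was -1.22 ± 0.42 SE, adjusted p = 0.132. Without LKO HFD mouse 1 (adjusted p = 0.0323) the LKO difference passed. The neighbouring paralogs Scd3 and Scd4 were at means of 0.0508 and 0.0270 RPKM.

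Me1 and Thrsp stand beside the chain. Malic enzyme makes NADPH while it turns malate into pyruvate, and Thrsp, also known as Spot 14, is a nuclear and cytosolic protein whose gene is strongly induced by carbohydrate and thyroid hormone. Me1 was at 168, 228, 107 and 101 RPKM in FF CD mice 1 to 4 and at 151, 166, 161, 187 and 247 RPKM in FF HFD mice 1 to 5. In LKO CD mice 1 to 4 its level was 154, 225, 133 and 134 RPKM, and in LKO HFD mice 1 to 5 it was 126, 71.0, 111, 114 and 89.9 RPKM. Every LKO HFD mouse lay below every FF HFD mouse and below every LKO CD mouse, whereas the FF diet groups overlapped. Me1 fell 1.78-fold in LKO HFD against FF HFD (-0.83 ± 0.22 SE, adjusted p = 0.0401, exact two-sided permutation p = 0.00794, the smallest possible). This call was lost without any 1 of LKO HFD mice 2, 3, 4 and 5 and FF HFD mice 2, 3, 4 and 5 (adjusted p from 0.0568 to 0.103), and without the filter on low levels (adjusted p = 0.0767). The diet differences of Me1 did not pass, at 0.33 ± 0.23 SE, adjusted p = 0.345 in FF and -0.65 ± 0.23 SE, adjusted p = 0.115 in LKO mice. Its interaction was -0.98 ± 0.33 SE, adjusted p = 0.129, and it passed without FF CD mouse 2 (adjusted p = 0.0389).

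Thrsp was at 816, 1337, 585 and 534 RPKM in FF CD mice 1 to 4 and at 300.1, 344, 243, 366 and 547 RPKM in FF HFD mice 1 to 5. Its LKO levels were 808, 481, 782 and 406 RPKM in CD mice 1 to 4 and 421, 197, 116, 49.1 and 200.2 RPKM in HFD mice 1 to 5. The 3 lowest of the 18 mice were LKO HFD mice 4, 3 and 2, and LKO HFD mouse 1 stood above LKO CD mouse 4. Thrsp fell 3.76-fold in LKO mice on the high fat diet (-1.91 ± 0.44 SE, adjusted p = 0.0285), the largest difference among the 10 genes in any of the 4 comparisons. The call was lost without any 1 of LKO HFD mouse 3 and LKO CD mice 1 and 3 (adjusted p from 0.0871 to 0.0961). In FF mice Thrsp was 2.20-fold lower (-1.14 ± 0.44 SE, adjusted p = 0.0773), which passed without any 1 of LKO HFD mice 1 and 4 (adjusted p from 0.0251 to 0.0401) and in a fit of the FF groups alone (adjusted p = 0.0191). The interaction of -0.77 ± 0.63 SE, adjusted p = 0.577 did not pass.

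The regulators differed from each other. Srebf1 was at 82.8, 56.6, 58.6 and 36.1 RPKM in FF CD mice 1 to 4 and at 39.6, 31.5, 24.0, 25.0 and 26.2 RPKM in FF HFD mice 1 to 5. The LKO CD mice 1 to 4 had 71.4, 36.4, 74.4 and 50.1 RPKM and the LKO HFD mice 1 to 5 had 46.0, 42.2, 26.2, 17.6 and 15 RPKM. Srebf1 overlapped between the diets in FF mice through FF CD mouse 4 and FF HFD mouse 1, and in LKO mice through LKO HFD mice 1 and 2. It fell 1.92-fold in FF mice (-0.94 ± 0.31 SE, adjusted p = 0.0369), and the LKO difference did not pass (-1.04 ± 0.31 SE, adjusted p = 0.0633). The FF call was lost without any 1 of FF HFD mice 2, 3, 4 and 5 and FF CD mice 1, 2 and 3 (adjusted p from 0.0560 to 0.120), and the LKO difference passed without any 1 of LKO HFD mice 1 and 2 and LKO CD mouse 2 (adjusted p from 0.0277 to 0.0492). Between genotypes Srebf1 differed by -0.01 ± 0.32 SE, adjusted p = 0.996 on CD and -0.10 ± 0.29 SE, adjusted p = 0.877 on HFD.

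Mlxipl was at 78.0, 60.3, 83.8 and 67.2 RPKM in FF CD mice 1 to 4 and at 56.5, 42.5, 43.5, 41.6 and 41.8 RPKM in FF HFD mice 1 to 5. In LKO CD mice 1 to 4 its level was 60.0, 54.3, 69.6 and 51.2 RPKM, and in LKO HFD mice 1 to 5 it was 49.8, 55.1, 75.2, 81.1 and 68.1 RPKM. FF HFD mouse 1 was the highest of its group, and still below every FF CD mouse. In LKO mice the diets overlapped, with LKO HFD mice 3 and 4 near the top of all mice. Mlxipl fell 1.59-fold in FF mice (-0.67 ± 0.15 SE, adjusted p = 0.00366, exact two-sided permutation p = 0.0159), a call that held without each of the 18 mice in turn, and its LKO difference was 0.15 ± 0.15 SE, adjusted p = 0.580. With each mouse rescaled to the same summed RPKM the FF difference of -0.58 came under the 1.5-fold limit. The 2 responses differed by 0.81 ± 0.21 SE, adjusted p = 0.0373, the only interaction that passed among the 10 genes. It was lost without any 1 of LKO HFD mice 3, 4 and 5, FF HFD mice 2, 3, 4 and 5, LKO CD mice 1, 2 and 4 and FF CD mice 1 and 3 (adjusted p from 0.0565 to 0.101), with rescaling (adjusted p = 0.0583), with quantile normalization (adjusted p = 0.0552) and without the filter on low levels (adjusted p = 0.0791).

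Without the filter, when 20071 genes were tested, the FF calls of Fasn (adjusted p = 0.0554), Acly (0.0768) and Srebf1 (0.0717) and the LKO calls of Acly (0.0623) and Thrsp (0.0678) were lost. Fitted to the 2 diet groups alone, Acly in FF mice (0.0753) and Thrsp in LKO mice (0.0850) were lost and Thrsp in FF mice was gained (0.0191).

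The loss of SAPS3 was compared on each diet. On CD the 10 genes ranged in log2 difference from -0.41 (Fasn, adjusted p = 0.878) to 0.33 (Scd1, adjusted p = 0.904), and all groups overlapped. On HFD 9 of the 10 were below 0, among them Srebf1 (-0.10 ± 0.29 SE) and Acacb (-0.07 ± 0.20 SE), which were within their error. The share of all tested genes below 0 was not counted, and their median was 0.03. Beside Me1, Mlxipl was past the adjusted p but under the fold limit, at 1.43-fold higher (0.52 ± 0.14 SE, adjusted p = 0.0401), with only FF HFD mouse 1 above any LKO HFD mouse. The differences of Scd1 (-0.90 ± 0.28 SE, adjusted p = 0.0741), Elovl6 (-0.71 ± 0.25 SE, adjusted p = 0.114), Acly (-0.65 ± 0.25 SE, adjusted p = 0.161) and Thrsp (-1.14 ± 0.42 SE, adjusted p = 0.139) did not pass. Neither did those of Fasn (-0.39 ± 0.31 SE, adjusted p = 0.526) and Acaca (-0.34 ± 0.14 SE, adjusted p = 0.193). Dropping either FF HFD mouse 1 or LKO HFD mouse 1 raised the number called from 1 to 4. In the absence of FF HFD mouse 1, Scd1, Mlxipl and Elovl6 passed as well (adjusted p = 0.0356, 0.0181 and 0.0345). With LKO HFD mouse 1 dropped instead, these were Scd1, Mlxipl and Thrsp (adjusted p = 0.0290, 0.0119 and 0.0260). Scd1 also passed with rescaling (adjusted p = 0.0471) and with quantile normalization (0.0382).

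Leaving out 1 mouse moved the counts of lower genes as well. In FF mice 2 of the 10 were called without FF CD mouse 1 or 2, 3 without FF CD mouse 3 or FF HFD mouse 1, 2 or 3, and 6 without LKO HFD mouse 1 or 4. In LKO mice none was called without LKO CD mouse 3, 1 after dropping LKO HFD mouse 3 or LKO CD mouse 1, and 5 when LKO HFD mouse 1 was left out. Between the genotypes on HFD none was called without any 1 of FF HFD mice 2 to 5 and LKO HFD mice 2 to 5.

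The same mice were low or high for many of these genes. FF CD mouse 4 had the lowest level of its group in 8 of the 10 and LKO CD mouse 4 in 6. FF HFD mouse 1 was lowest in 6 and highest in Srebf1 and Mlxipl, and FF HFD mouse 5 was highest in 6. LKO HFD mouse 1 was highest of its group in Scd1, Me1, Thrsp and Srebf1 and lowest in Mlxipl. Over deviations from the group means in the 18 mice, which share a library for each point, the median Pearson r of the 45 pairs of genes was 0.39, from -0.55 (Thrsp and Mlxipl) to 0.78 (Acly and Elovl6). In 17 pairs r was above 0.5, among them Scd1 and Me1 (0.77), Fasn and Elovl6 (0.76) and Acly and Me1 (0.76). Neither these pairs nor the counts of lowest and highest mice were set beside those of all tested genes, so both are a description only. The regulators Srebf1 and Mlxipl had median r of -0.06 and -0.15 with the other 9 genes. For Srebf1 these values went both ways, from -0.37 with Acaca to 0.47 with Fasn and 0.54 with Thrsp, and over all 18 mice, group differences included, r was 0.74 with Fasn and 0.75 with Thrsp.

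**Figure D3:**
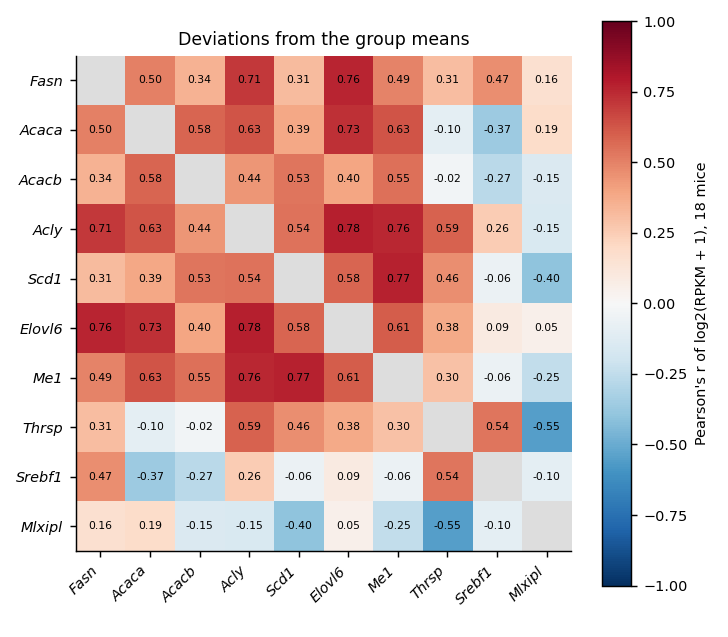
Pearson r between each pair of the 10 genes over the 18 mice, from deviations of log2(RPKM + 1) from the group means. The highest value is 0.78, for Acly and Elovl6, and the lowest -0.55, for Thrsp and Mlxipl.

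Around these genes 66 others were listed by role, of which 63 were tested (Scd3, Scd4 and Elovl7 were too low). In FF mice 12 of the 63 (19.0%) changed with diet beside 6.6% of all genes, 8 higher and 4 lower, and in LKO mice 7 (11.1%, beside 1.27%), 3 higher and 4 lower. Between LKO CD and FF CD 0 of 63 were called by limma, 5 were at an unadjusted p under 0.05 (1 of them lower) and 0 were called by voom. Between LKO HFD and FF HFD 8 (12.7%, beside 2.07%) changed, 2 higher and 6 lower, and the interaction passed for 3 (4.76%, beside 2.44%), all below 0. Scaling moved some of these splits. Centred on the median, the LKO diet calls were 2 higher and 5 lower, the HFD genotype calls 1 higher and 7 lower, and the interaction 1 above 0 and 3 below. The medians over the 63 genes were 0.02, -0.11, 0.08 and -0.05 in the 4 comparisons.

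**Figure D4:**
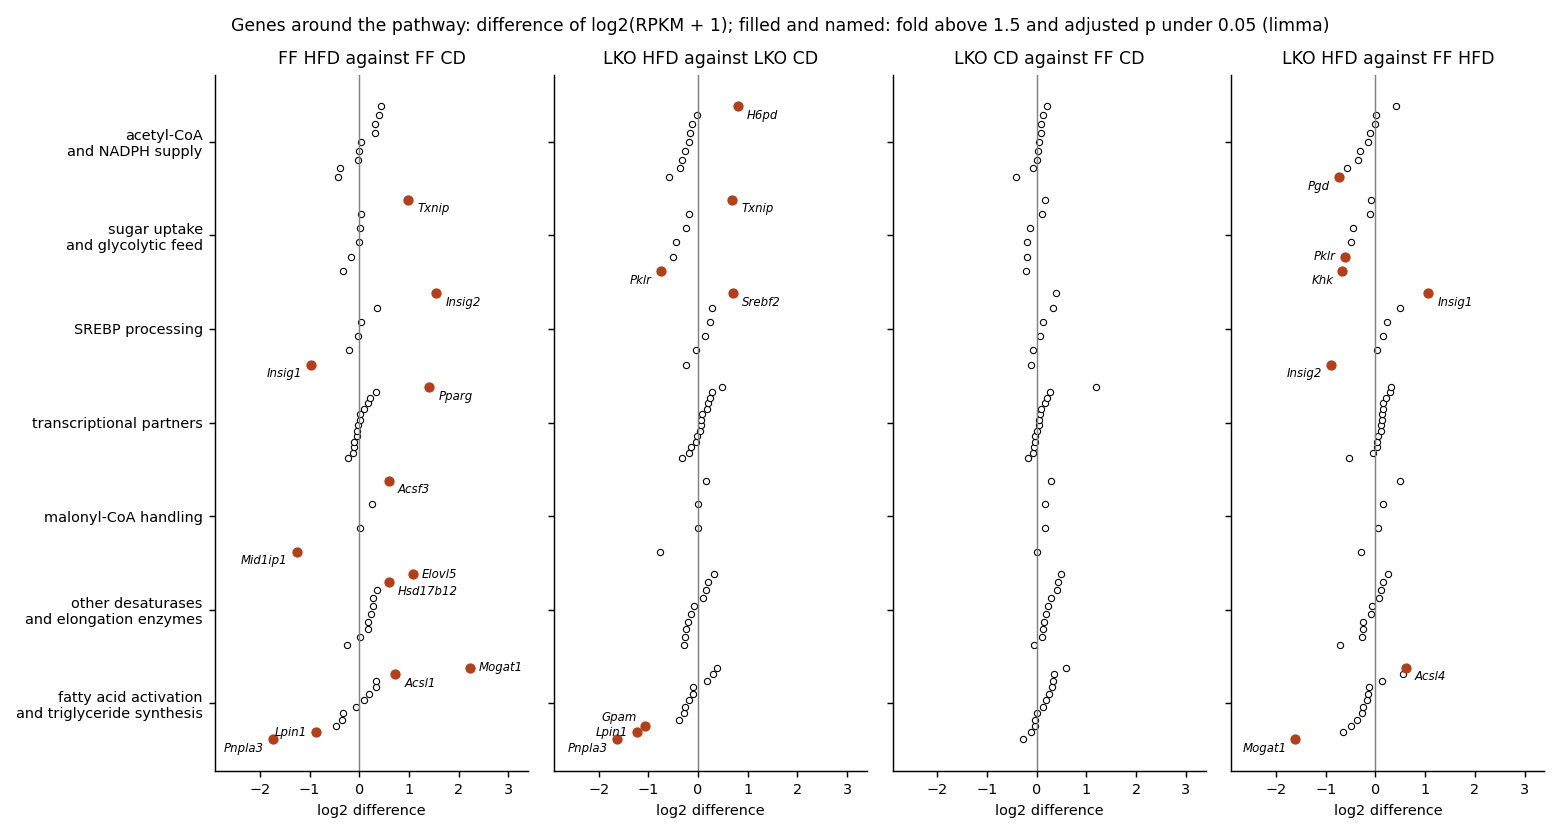
Difference of log2(RPKM + 1) for 61 of the tested genes around the pathway, by list and comparison, with the genes that passed filled and named. In LKO CD against FF CD no point is filled, and Mogat1 is the highest point in FF HFD against FF CD (2.22) and the lowest in LKO HFD against FF HFD (-1.61).

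Among the genes of SREBP processing, the ER proteins INSIG1 and INSIG2 hold the SREBP-SCAP complex back from the Golgi. Insig1, itself an SREBP target, was at 221, 224, 134 and 99.9 RPKM in FF CD and at 105, 93.3, 62.1, 64.9 and 92.3 RPKM in FF HFD mice. In LKO CD it was at 255, 169, 229 and 169 RPKM and in LKO HFD at 187, 198, 259, 124 and 125 RPKM. FF HFD mouse 1 alone reached the level of an FF CD mouse, and all LKO HFD mice lay above all FF HFD mice. Insig1 fell in FF mice (-0.96 ± 0.26 SE, adjusted p = 0.0128) and was higher in LKO HFD than in FF HFD (1.06 ± 0.24 SE, adjusted p = 0.0202). The first call was lost without FF CD mouse 2 (adjusted p = 0.0513) and the second without any 1 of LKO HFD mouse 3 and FF HFD mice 3 and 4 (adjusted p from 0.0519 to 0.0661). Insig2 moved the other way, rising in FF HFD (1.55 ± 0.26 SE, adjusted p = 0.000479) and lower in LKO HFD than FF HFD (-0.89 ± 0.24 SE, adjusted p = 0.0458), the latter lost without any 1 of LKO HFD mice 2, 4 and 5, FF HFD mice 2, 3, 4 and 5, LKO CD mice 1 and 4 and FF CD mouse 1 (adjusted p from 0.0530 to 0.117). Srebf2, the cholesterol-side SREBP gene, rose in LKO mice on HFD (0.71 ± 0.15 SE, adjusted p = 0.0197), lost without any 1 of LKO HFD mouse 3 and LKO CD mouse 3 (adjusted p from 0.0599 to 0.0739).

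**Figure D5:**
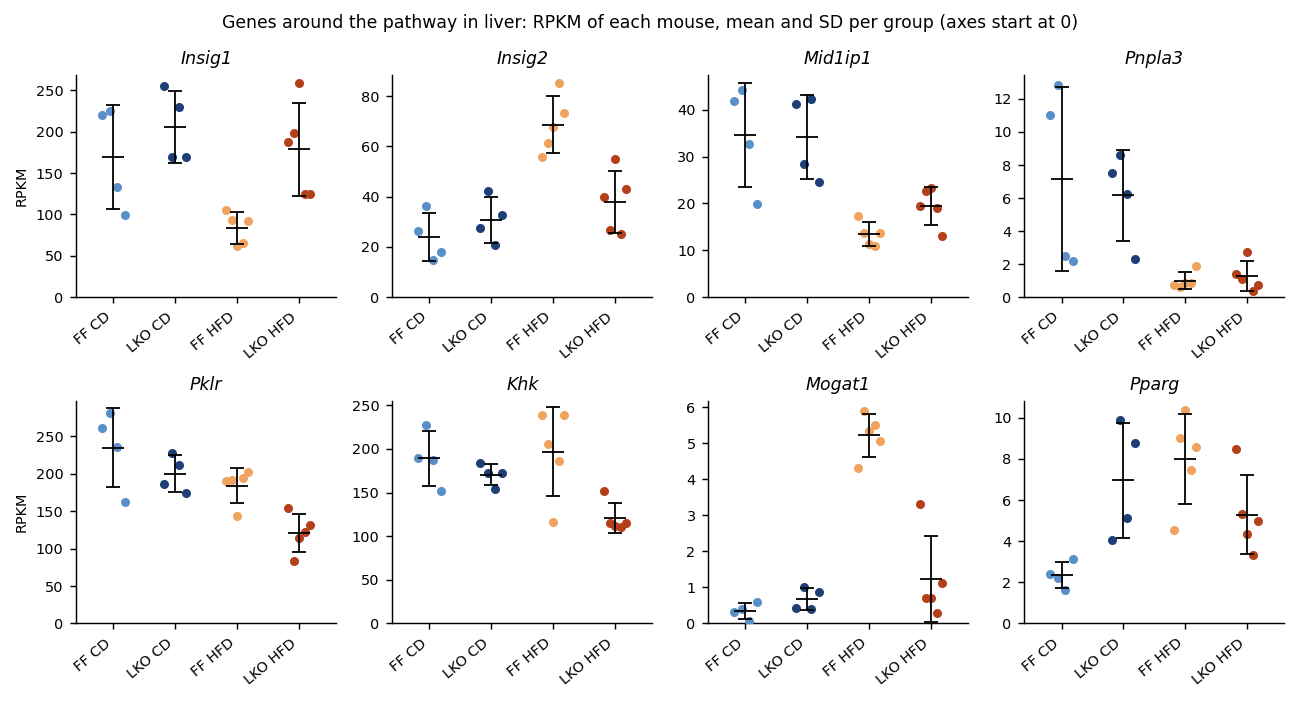
Level in RPKM by group of 8 genes around the pathway, with 1 point per mouse. Insig1 in LKO HFD (124 to 259 RPKM) lies above FF HFD (62.1 to 105 RPKM), and Mogat1 reaches 4.31 to 5.89 RPKM in FF HFD and 0.295 to 3.30 RPKM in LKO HFD.

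Of the genes that bring sugar to the pathway, Khk, which phosphorylates fructose, fell in LKO HFD against FF HFD (-0.67 ± 0.17 SE, adjusted p = 0.0308), and so did Pklr, the liver pyruvate kinase gene and a ChREBP target (-0.62 ± 0.16 SE, adjusted p = 0.0398). The groups overlapped for both genes. The Khk call was lost without any 1 of LKO HFD mice 2, 3, 4 and 5 and FF HFD mice 1, 2, 4 and 5 (adjusted p from 0.0547 to 0.0830), and the Pklr call without any 1 of LKO HFD mice 2, 3 and 4 and FF HFD mice 1, 2, 4 and 5 (adjusted p from 0.0561 to 0.0958). Pklr also fell with diet in LKO mice (-0.74 ± 0.17 SE, adjusted p = 0.0285), lost without any 1 of LKO HFD mouse 3 and LKO CD mice 1, 2 and 3 (adjusted p from 0.0612 to 0.0870). Txnip, a glucose-induced inhibitor of glucose uptake, rose on HFD in FF (0.98 ± 0.19 SE, adjusted p = 0.00165) and in LKO mice (0.69 ± 0.19 SE, adjusted p = 0.0499), the latter lost without any 1 of LKO HFD mice 1, 2, 3 and 4, FF HFD mice 1, 2, 3 and 5, LKO CD mice 1 and 3 and FF CD mice 1, 2, 3 and 4 (adjusted p from 0.0510 to 0.164).

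Of the 9 genes that supply acetyl-CoA and NADPH, Pgd of the pentose phosphate pathway was lower in LKO HFD than in FF HFD (-0.74 ± 0.16 SE, adjusted p = 0.0143), with no overlap and a call that held without each mouse in turn, and H6pd, which makes NADPH in the ER, rose in LKO mice on HFD (0.80 ± 0.16 SE, adjusted p = 0.0190). The H6pd call was lost without any 1 of LKO HFD mouse 3 and LKO CD mouse 3 (adjusted p from 0.0599 to 0.0698). The diet response of Tkt, the transketolase gene, differed between the genotypes (-0.65 ± 0.13 SE, adjusted p = 0.0109). Tkt was at 44.7, 50.9, 43.0, 40.2 and 46.5 RPKM in FF HFD and 34.5, 29.4, 29.0, 30.2 and 27.1 RPKM in LKO HFD mice.

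Near malonyl-CoA, Mid1ip1, whose product makes acetyl-CoA carboxylase polymerise and pairs with Thrsp, was at 42.0, 44.3, 32.7 and 19.9 RPKM in FF CD and 17.4, 13.6, 11.3, 11 and 13.8 RPKM in FF HFD mice, without overlap. It fell in FF mice (-1.26 ± 0.22 SE, adjusted p = 0.000776), and its LKO difference was -0.77 ± 0.22 SE, adjusted p = 0.0583. Acsf3, the mitochondrial malonyl-CoA synthetase gene, rose in FF mice (0.59 ± 0.16 SE, adjusted p = 0.0148), and came under the fold limit or the adjusted p without any 1 of FF HFD mice 1, 2, 4 and 5 and FF CD mice 3 and 4 (log2 difference from 0.53 to 0.71 over all 18). Of the other desaturases and elongation enzymes, Elovl5, which elongates polyunsaturated fatty acids (1.08 ± 0.26 SE, adjusted p = 0.00768), and Hsd17b12, a later step of the elongation cycle (0.60 ± 0.12 SE, adjusted p = 0.00265), rose in FF HFD, the opposite direction to Elovl6. Hsd17b12 was lost without any 1 of FF HFD mouse 2 and FF CD mice 3 and 4 (log2 difference from 0.50 to 0.68 over all 18).

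In fatty acid activation and triglyceride synthesis, Pnpla3, an SREBP-1c target that acts on lipid droplets, fell in both genotypes. It was at 11, 12.9, 2.52 and 2.21 RPKM in FF CD and 0.763, 0.636, 0.852, 0.884 and 1.90 RPKM in FF HFD mice, with no overlap (-1.75 ± 0.42 SE, adjusted p = 0.00642). In LKO mice the difference was -1.63 ± 0.42 SE, adjusted p = 0.0398, lost without any 1 of LKO HFD mice 2, 3, 4 and 5 and LKO CD mice 1, 2 and 3 (adjusted p from 0.0549 to 0.118). Lpin1, a phosphatidic acid phosphatase gene, fell in FF (-0.88 ± 0.29 SE, adjusted p = 0.0377) and LKO mice (-1.24 ± 0.29 SE, adjusted p = 0.0285), the first lost without any 1 of FF HFD mice 1, 3 and 5 and FF CD mice 1, 2, 3 and 4 (adjusted p from 0.0520 to 0.0914) and the second without any 1 of LKO HFD mice 3 and 4 and LKO CD mice 1 and 3 (adjusted p from 0.0528 to 0.101). Gpam, which starts glycerolipid synthesis, fell in LKO mice (-1.06 ± 0.25 SE, adjusted p = 0.0304), lost without any 1 of LKO HFD mice 3 and 4 and LKO CD mice 1, 2, 3 and 4 (adjusted p from 0.0528 to 0.0790). Acsl1, an acyl-CoA synthetase gene, rose in FF HFD (0.72 ± 0.14 SE, adjusted p = 0.00153), and Acsl4, which prefers arachidonate, was higher in LKO HFD than in FF HFD (0.61 ± 0.12 SE, adjusted p = 0.00811), which was lost without any 1 of LKO HFD mouse 3 and FF HFD mouse 1 (log2 difference from 0.50 to 0.66 over all 18).

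Mogat1, a monoacylglycerol acyltransferase gene induced by PPARγ in fatty liver, was at 0.310, 0.397, 0.0708 and 0.588 RPKM in FF CD and 4.31, 5.89, 5.34, 5.50 and 5.06 RPKM in FF HFD mice. It was at 0.433, 1.0, 0.400 and 0.883 RPKM in LKO CD and 3.30, 0.700, 0.712, 0.295 and 1.12 RPKM in LKO HFD mice. All FF HFD mice stood above all others, LKO HFD mouse 1 being the nearest, and at such low levels the added 1 RPKM shrinks the log2 difference. Mogat1 rose in FF HFD (2.22 ± 0.24 SE, adjusted p = 8.61e-06), was lower in LKO HFD than FF HFD (-1.61 ± 0.22 SE, adjusted p = 0.000472), and its interaction was -1.93 ± 0.34 SE, adjusted p = 0.00368. Pparg was at 2.39, 2.23, 1.62 and 3.14 RPKM in FF CD and 4.54, 9.02, 10.4, 7.46 and 8.58 RPKM in FF HFD mice. In LKO CD it was at 4.04, 9.87, 5.14 and 8.79 RPKM and in LKO HFD at 8.46, 5.30, 4.36, 3.35 and 5.0 RPKM. It rose in FF mice (1.41 ± 0.25 SE, adjusted p = 0.000833) and not in LKO mice (-0.32 ± 0.25 SE, adjusted p = 0.478), and the responses differed (-1.72 ± 0.35 SE, adjusted p = 0.0108). On CD its LKO level differed from FF by 1.20 ± 0.26 SE, adjusted p = 0.0748, which passed without any 1 of LKO HFD mouse 1, FF HFD mouse 1 and LKO CD mouse 1 (adjusted p from 0.0298 to 0.0468). The calls of Mogat1 and Pparg held without each mouse in turn. Pparg was the only 1 of the 14 transcriptional partners listed that passed in a comparison or in the interaction.

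The genes whose levels were most like the mean z-score of the 10 over the 18 mice were Hcn3 (Pearson r = 0.90), Pklr (0.89), Pfkfb3 (0.89), Lrrc28 (0.88), Pdhb (0.86) and Pnpla3 (0.85). Hcn3 overlaps Pklr in the genome, and their reads may be shared. Over deviations from the group means, which leave out the differences between groups, Pnpla3 (0.86) led, followed by Lrrc28 (0.82), Rpia (0.82), Anks1 (0.82), Rrm2 (0.80) and Hsbp1l1 (0.80). Pnpla3 and Lrrc28 were in both lists. The points share a library for each mouse, and these r are given as a description.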

How the data were processed

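Liver RNA of 18 mice was sequenced, and the authors deposited 1 RPKM value per gene and mouse. Per the labels HISAT2 2.0.4 and Partek with the mm10 build are named in the submitters' processing notes. The extraction text names a small RNA protocol and a standard RNA-seq, while the values are of genes. The sample descriptions write WT for FF and KO for LKO. Counting, strand and annotation are not given in the sources used here. RPKM corrects for depth and gene length and not for composition, so a few very abundant genes can shift the others. Depth was estimated from the steps between low RPKM of 1-exon genes, and reads from depth and length. Of 211 to 297 such low values per mouse, 36 to 54 were whole reads at the best depth and 18 to 34 at the next best. Only a minority of the values thus set the depth, so both depth and reads are approximate.

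All values were tested as log2(RPKM + 1) with limma 3.58.1 in R 4.3.3 (1 coefficient for each of 4 groups, trend on the mean), for genes averaging 0.5 RPKM or more, two-sided, with Benjamini-Hochberg adjustment over the 11090 tested genes. The interaction is the LKO diet response minus the FF diet response. Fits were tested on simulated data. Exact permutation tests of a single gene ran over the mice of 2 groups, where the smallest p is 0.0286 for 4 against 4 and 0.00794 for 5 against 4 or 5. Their p are not adjusted and are quoted only for genes picked because their groups did not overlap. Each mouse is 1 replicate. Tables and plots were made in Python 3.11.15 with numpy 2.4.6, pandas 2.3.3 and matplotlib 3.10.9.

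The 10 genes, the 7 lists of 66 others and the marker lists were chosen with earlier results of these data known. Every one of the 10 is named, and from the 7 lists the genes that passed in any comparison, except that some results are not reported here, although they stand in the counts. For likeness, the 6 genes with the highest Pearson r to the mean z-score of the 10 are named. Alternatives were a pseudocount of 0.1, a filter at 1 RPKM or none, 3 other scalings, only the groups compared, a replicate block, voom on estimated reads, adjusted p alone, and leaving out each mouse.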

Additional observations from a re-analysis of the deposited data

Results flagged for a closer look

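Dixon's test for a lone mouse was applied to the 40 combinations of the 10 genes and 4 groups, of which chance marks about 1 in 20. It marked 2. Acacb was at 35.9 RPKM in FF HFD mouse 4, where the gap to the next mouse was 0.762 of the range of the group. Mlxipl was at 56.5 RPKM in FF HFD mouse 1, with a gap of 0.873 of the range.

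The diet response differed between the genotypes, by the limma interaction of diet and genotype with Benjamini-Hochberg adjustment, for 4 of the genes described. The LKO response of Mlxipl was above the FF response by 0.81 (log2, adjusted p = 0.0373). For Tkt the interaction was -0.65 (adjusted p = 0.0109), for Pparg -1.72 (adjusted p = 0.0108) and for Mogat1 -1.93 (adjusted p = 0.00368).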

How the results depend on the processing

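With 4 or 5 mice a group, 1 mouse decides many calls. Leaving out each mouse in turn gave 2 to 6 of the 10 genes in FF HFD against FF CD, 0 to 5 in LKO HFD against LKO CD, 0 to 0 in LKO CD against FF CD, 0 to 4 in LKO HFD against FF HFD and 0 to 2 in the interaction of diet and genotype. In that order the genes of the 7 lists gave 9 to 12, 0 to 7, 0 to 1, 4 to 10 and 3 to 7, and all genes 605 to 802, 17 to 237, 11 to 45, 132 to 318 and 156 to 392.

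Without a filter the 10 genes gave 2, 1, 0 and 0 calls (FF diet, LKO diet, HFD genotype, interaction), with rescaling to the same sum or quantile normalization 2 on HFD and 0 in the interaction, and with adjusted p alone 2 on HFD. In the LKO diet comparison the 7 lists gave 2 without a filter or with the groups compared alone, 1 on CD with a pseudocount of 0.1, 5 on HFD without a filter, and in the interaction 9 rescaled and 6 with quantile normalization. All genes gave 1254 (pseudocount 0.1), 1274 (voom) and 2287 (adjusted p alone) in the FF diet comparison. In the LKO diet comparison they gave 272 (pseudocount 0.1), 47 (no filter), 88 (centred), 87 (quantile), 40 (groups compared alone), 286 (voom) and 449 (adjusted p alone). On CD they gave 12 without a filter, on HFD 152 without a filter and 466 by adjusted p alone, and in the interaction 169 without a filter and 411 rescaled. The causes were not tested.

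Rescaled, Srebf1 on CD turned to 0.0072, and the interactions of Fasn, Acaca and Acacb to -0.045, -0.051 and -0.0058. With 1 mouse out, log2 differences near 0 changed sign: Acacb in the FF diet comparison (-0.041 to 0.24), Me1 (-0.024 to 0.37) and Srebf1 (-0.22 to 0.19) on CD, Acacb (-0.21 to 0.11) and Srebf1 (-0.29 to 0.10) on HFD, and the interactions of Fasn (-0.25 to 0.34), Acaca (-0.068 to 0.11), Acacb (-0.071 to 0.24) and Srebf1 (-0.30 to 0.11).

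Pairing by replicate number was checked by correlating deviations from the group means. Of 25 pairs with the same number 10 correlated above 0.1, and 5 of 18 mice correlated best with their own number. The median r was 0.05 for the same number and -0.01 for different numbers. With values so close, this check cannot decide whether the numbers pair the mice. With the replicate block the 10 genes gave 5 calls in the LKO diet comparison, Scd1 (adjusted p = 0.0486) and Srebf1 (0.0341) being added, and 0 on HFD, where Me1 was at 0.0565. Thrsp in FF mice was at 0.0306. Counting error is small beside the spread between mice at this depth.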

Other observations

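Ratios between genes of the pathway in the same mouse were looked at after the values had been seen, and are given without a test. Scd1 over Fasn was 15 to 26.1 in FF CD mice and 39.0 to 61.4 in FF HFD mice, with no overlap. In LKO mice the 2 diets overlapped, at 14.6 to 51.6 on CD and 15.5 to 68.2 on HFD. Scd1 over Elovl6 was 26.3 to 45.4 in FF CD and 76.1 to 107 in FF HFD, and Me1 over Fasn 0.782 to 1.41 and 2.23 to 3.70, also with no overlap. In LKO mice both ratios overlapped between the diets, Scd1 over Elovl6 at 32.4 to 73.1 on CD and 52.2 to 139 on HFD, and Me1 over Fasn at 0.782 to 2.40 and 1.22 to 2.89. The ratio of the carboxylase genes, Acacb over Acaca, was 0.801 to 1.15 in FF CD and 1.16 to 2.23 in FF HFD mice, and 0.892 to 1.41 in LKO CD and 1.47 to 2.33 in LKO HFD mice. The diet groups thus did not overlap in either genotype, though by a narrow margin. Mlxipl over Srebf1 ranged from 0.942 to 1.86 in FF CD and from 1.35 to 1.81 in FF HFD mice. In LKO mice it ranged from 0.840 to 1.49 on CD and from 1.08 to 4.62 on HFD, so the diets overlapped in both genotypes. How often ratios of other gene pairs separate the diets was not counted. Of single genes, 18.3% did so in FF and 9.04% in LKO mice.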
